A study of Mus musculus with 18 samples.

Results

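The genes described here are the translation factors and the aminoacyl-tRNA synthetases of a spotted mouse cDNA array. They were taken as every gene probe whose description gives a symbol starting with Eif or Eef, or contains the words tRNA synthetase. The rule found 70 of 15247 gene probes, for 38 genes, of which 21 were initiation factors or their regulators, 5 were elongation factors and 12 were synthetases. The array names 5615 genes in all, and each gene is given by its brightest probe unless another probe is named. The RNA was from embryoid bodies of i-Mixl1, a mouse embryonic stem cell line in which doxycycline (DOX) turns on a Mixl1 transgene. Mixl1 encodes a homeobox factor of the primitive streak. All 6 groups were i-Mixl1 cells: 3 samples with DOX at 0.1 µg/ml and 3 without were taken at each of days 2, 3 and 4, and DOX was given 1 day after the cells were plated. No probe carries the symbol Mixl1, so the induced gene was not measured here.

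Each of the 9 arrays carried an RNA with DOX in one channel and an RNA without DOX in the other, and all 9 ran the same way. The deposited value columns place the DOX samples in the red channel, while the dye named in the labels places them in the green channel. The direction is therefore not settled, and every ratio below is log2 of red over green. If the value columns are right, a lower ratio is a lower level with DOX, and if the dye labels are right, it is a higher level with DOX. With no dye swap, the effect of the dye and that of DOX cannot be told apart within a day. In bulk embryoid bodies, fewer cells of a type and less RNA per cell cannot be told apart either. Median background-subtracted intensities of the arrays were 209 to 491, and 54.3 to 65.6% of gene probes in red and 62.0 to 70.1% in green reached a signal-to-noise ratio of 1.4. Markers of several cell types moved between the channels. Of 6 measured pluripotency markers, 5 were higher and 1 lower in red at day 3, with a median log2 ratio of 0.43, and 2 were higher and 2 lower at day 4. The lower one at day 3 was Pou5f1 (-0.76, adjusted p = 0.0009744 by limma), which was at -1.90 at day 4 (adjusted p = 2.06e-07). Of 4 measured hematopoietic markers, all 4 were higher in red at day 4. Primitive streak markers had 2 of 3 higher at day 3 and 2 lower at day 4. Trophoblast markers had 3 of 4 higher at day 3, and 3 higher and 1 lower at day 4. Neuroectoderm markers had 2 of 2 lower at day 3 and 1 at day 4. Extraembryonic endoderm markers had 1 of 4 higher at day 3 and 2 at day 4. Only 1 endothelial and 1 fibroblast marker were measured. Beside these counts, 20.1% of all gene probes passed the limma test at day 3 and 17.4% at day 4. The part of these shifts in the ratios below was not tested.

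Translation starts when the initiation factors bring the small ribosomal subunit and the initiator tRNA to the capped end of an mRNA: eIF4E binds the cap, eIF4A unwinds the leader, eIF3 joins the ribosome and eIF2 carries the tRNA. Elongation factor 1A then delivers each charged tRNA to the ribosome, the 1B subunits recharge it with GTP, and elongation factor 2 moves the ribosome along the message. The synthetases join each amino acid to its tRNA. Many mRNAs of elongation factors and ribosomal proteins begin with a run of pyrimidines, the TOP motif, through which mTORC1 controls their translation, and several synthetase genes are targets of ATF4 in the response to amino acid shortage.

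The starts of some of the genes whose ratios are described below are shown because the TOP motif lies at the start of transcription. Eif2b4 and Eef1g are not among them. Each line gives 20 bases before and 20 bases after the RefSeq start in build GRCm38.p6. The longest run of C and T anywhere in the window is in capitals, or the first of them where runs are equally long. Kars, which passed on no day, is shown for comparison.
Eef1a1: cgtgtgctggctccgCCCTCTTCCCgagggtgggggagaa
Eef1a2: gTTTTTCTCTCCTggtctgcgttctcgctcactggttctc
Eef2: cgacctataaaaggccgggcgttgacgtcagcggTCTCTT
Eif4b: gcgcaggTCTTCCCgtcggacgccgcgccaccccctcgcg
Eif3f: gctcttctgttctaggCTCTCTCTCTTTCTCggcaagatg
Eif4a1: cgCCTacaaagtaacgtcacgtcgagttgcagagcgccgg
Eprs: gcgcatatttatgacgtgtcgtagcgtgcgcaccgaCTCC
Kars: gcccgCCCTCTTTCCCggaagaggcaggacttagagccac
The windows lie at chr9:78481705-78481744 (minus strand), chr2:181156996-181157035 (minus), chr10:81176611-81176650 (plus), chr15:102073753-102073792 (plus), chr7:108934395-108934434 (plus), chr11:69672404-69672443 (minus), chr1:185363024-185363063 (plus) and chr8:112011335-112011374 (minus), in the order of the lines. The run in Eif3f is 15 bases, and 1.5% of the 32851 RefSeq windows of that size hold a run at least as long. The runs of Eef1a1 (10 bases) and Kars (11 bases) are matched or exceeded in 7.39% and 5.2% of windows. For Eef1a2, Eif4b, Eef2 and Eprs these shares are 3.73%, 24.3%, 37.5% and 78.6%. The run of Eif4a1 is 3 bases, and 93.7% of windows hold one as long. Of the members, 27 had an entry in the promoter table. The capitals begin at position -19 in Eef1a2, -18 in Eif4a1, -15 in Kars and -13 in Eif4b, and they end before the start. These runs therefore lie outside the transcript as annotated. The Eif4b window holds a later run of the same length, in small letters, after the start. The runs of Eef2 and Eprs reach the last base shown, so their full length is not known from these windows. A run is a description of these letters only.

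Most of the translation genes showed no difference between the channels that passed the test. At day 2, 1 of 38 genes passed, lower in red, where 3.3% of 15246 gene probes passed and 1.92% were lower. At day 3, 2 genes passed, both lower in red, where 20.1% of 15247 gene probes passed and 11% were lower. At day 4, 4 genes passed, all lower in red, where 17.4% of 15243 gene probes passed and 9.45% were lower. The 2 genes of day 3, Eef1a1-ps1 and Eef1a2, are also among the 4 of day 4, and their probes may read the same mRNA. No brightest probe was higher in red past the test on any day in this fit. Under loess within each print block 2 were higher at day 3 and 3 at day 4, and with dim probes filtered out 3 were at day 3 and 1 at day 4. Without the array as a pair, none of the 38 passed on any day. Counting probes instead of genes, 2 of the 70 members' probes were called at day 2 (2.86%), 10 at day 3 (14.3%), of which a dimmer Dars probe was the one higher in red, and 11 at day 4 (15.7%), all of them lower. The median log2 ratio of the 38 genes was -0.03 at day 2, 0.00 at day 3 and 0.01 at day 4, beside 0.00 on each day over all gene probes. Within 0.25 of 0 on the log2 scale lay 34 of the 38 genes at day 3 and 32 at day 4, or 89.5% and 84.2%, beside 76.1% and 78.5% of all gene probes. The members were chosen with results of these data known, so their shares against the background are a description. The median SE of a member's ratio was 0.09 at each day, with 3 arrays.

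**Figure D1:**
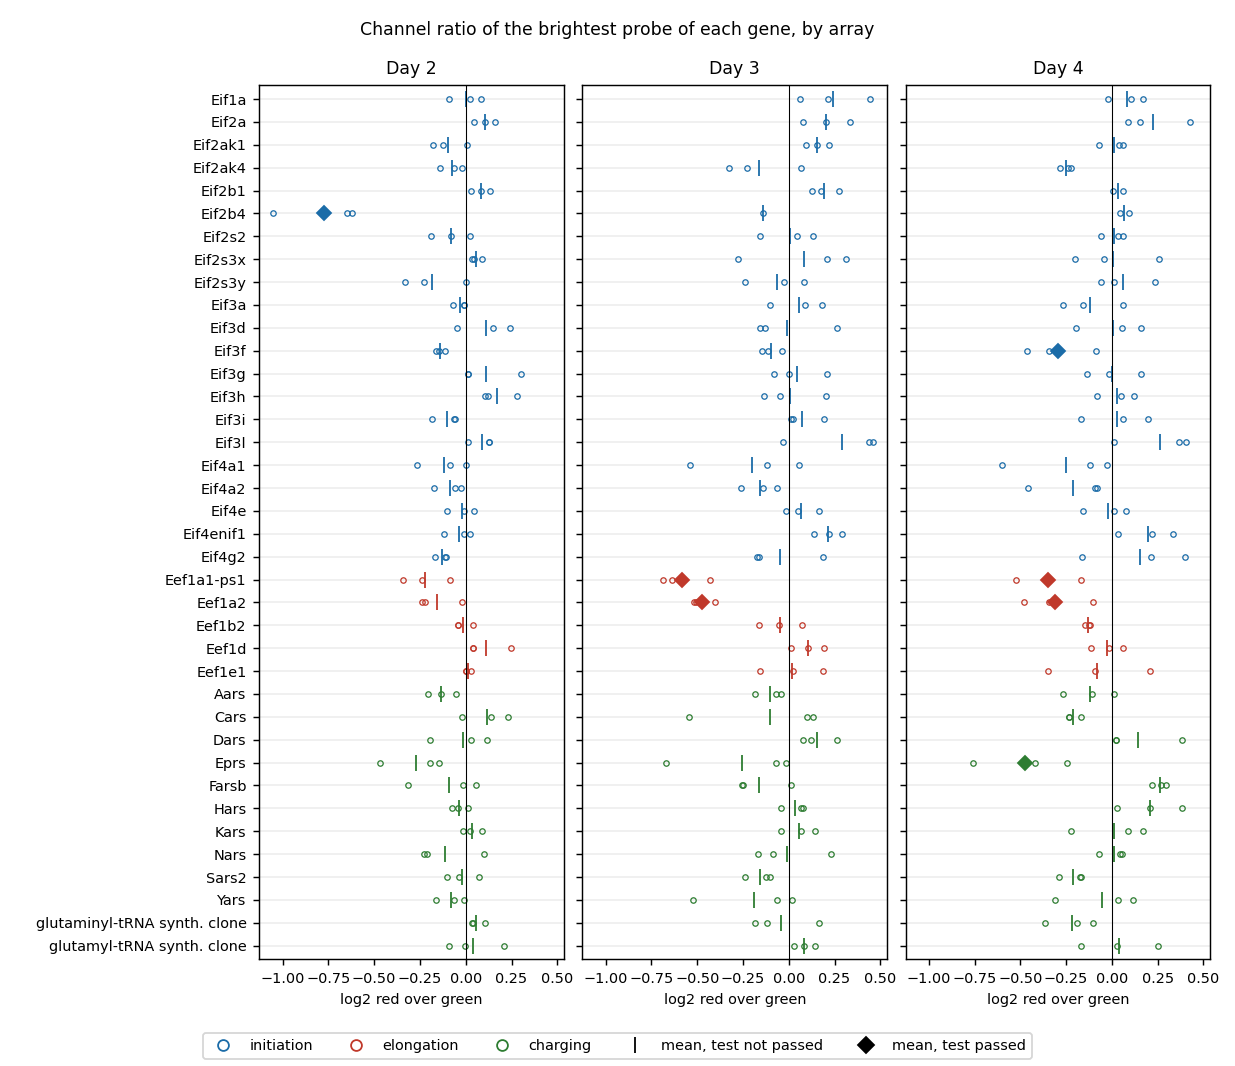
The plot of ratios by array shows log2 red over green (horizontal axis) of the brightest probe of the 38 genes (rows) on the 3 arrays of days 2, 3 and 4. Open circles are single arrays, bars and diamonds are means, and diamonds mark means that passed the test: 1 gene at day 2, 2 at day 3 and 4 at day 4, all left of 0.

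Among the elongation factors, the EF1A probes stood lower in red, while the EF1B subunits Eef1b2 and Eef1d did not pass. The probe named Eef1a1-ps1, a processed pseudogene of the Eef1a1 gene, read log2 ratios of -0.64, -0.43 and -0.69 on the 3 arrays of day 3 and -0.17, -0.35 and -0.53 at day 4. All 6 values were below 0. The mean was -0.58 at day 3 (SE 0.09, 1.5-fold lower in red, adjusted p = 0.0002743, limma) and -0.35 at day 4 (SE 0.09, 1.27-fold, adjusted p = 0.01315). The probe named Eef1a2, the muscle and neuron form of EF1A, read -0.50, -0.40 and -0.52 at day 3 and -0.10, -0.35 and -0.48 at day 4. Its mean was -0.47 at day 3 (SE 0.09, 1.39-fold, adjusted p = 0.001212) and -0.31 at day 4 (SE 0.09, 1.24-fold, adjusted p = 0.02162). At day 2 the means were -0.22 and -0.16 and neither passed. Both day 4 calls were lost without array 2 or array 3, and the day 4 call of Eef1a1-ps1 also under loess within each print block. EF1A genes and pseudogenes are alike in sequence, so a cDNA spot of one may take up the mRNA of another. Clone sequences were not at hand and this was not tested, so the reads of Eef1a1, Eef1a2 and the pseudogene cannot be told apart here.

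The other elongation genes are Eef1b2 and Eef1d, subunits of the EF1B exchange factor, and Eef1e1, which sits in the synthetase complex. Eef1b2 read -0.15, -0.12 and -0.13 on the day 4 arrays, a mean of -0.13 (SE 0.08) that did not pass (adjusted p = 0.2624, limma). Eef1d had means of 0.11, 0.10 and -0.02 at days 2, 3 and 4. Eef1e1 lay between -0.08 and 0.02 on every day. The 5 genes together had medians of -0.01, -0.05 and -0.13 at days 2, 3 and 4.

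All 4 probes named Eef1a1-ps1 were lower in red at day 3, with means from -0.59 to -0.43, and all 4 passed. At day 4 they ran from -0.35 to -0.19, and 3 of 4 passed. Array 1 of day 4 gave the values nearest 0 for each of these probes. The same clones did not pass at day 2, where their means ran from -0.32 to -0.22.

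The initiation factors were close to equal in both channels. At day 3 none of the 21 passed, their median was 0.04 and the range ran from -0.20 for Eif4a1 to 0.29 for Eif3l, a subunit of eIF3. Eif3l read 0.46, 0.44 and -0.03, and did not pass (adjusted p = 0.05961, limma). At day 4, 1 of 21 passed. Eif3f, a further eIF3 subunit, read -0.46, -0.08 and -0.34, with a mean of -0.30 (SE 0.08, 1.23-fold lower in red, adjusted p = 0.02126). Its means at days 2 and 3 were -0.14 and -0.10. The call at day 4 was lost without array 1 or array 3, and over all alternatives the mean lay between -0.40 and -0.19.

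The remaining eIF3 subunits, Eif3a, Eif3d, Eif3g, Eif3h and Eif3i, had day 4 means from -0.12 to 0.03 and none passed. Of the eIF2 genes, Eif2s2, the beta subunit, read 0.06, -0.06 and 0.03 at day 4. Eif2ak4, the GCN2 kinase that senses uncharged tRNA, read -0.28, -0.24 and -0.22 at day 4, below 0 on every array, with a mean of -0.25 (SE 0.08, adjusted p = 0.05325, limma) that did not pass. Eif2b1, the alpha subunit of eIF2B, had a day 4 mean of 0.03 over 2 arrays, since 1 flagged spot was left out. Eif2ak1, the heme-regulated kinase, had means of -0.10, 0.15 and 0.01 on the 3 days.

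Of the cap-binding group, Eif4e, the cap-binding protein, read 0.08, -0.16 and 0.01 at day 4. Eif4g2, a scaffold related to eIF4G that lacks the cap-binding site, had means of -0.13, -0.05 and 0.15 on the 3 days. Eif4a2, the second helicase, had a mean of -0.21 at day 4 (adjusted p = 0.1163, limma), and its clone gave no product in the submitters' PCR check. Eif4enif1, which carries eIF4E into the nucleus, read 0.14, 0.29 and 0.22 at day 3 and 0.22, 0.33 and 0.03 at day 4, above 0 on all 6 arrays, and passed at neither day. Eif1a, of the scanning complex, had a mean of 0.24 at day 3 (SE 0.09, adjusted p = 0.06081).

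Eif4a1, the main eIF4A helicase, gave different answers by probe. Its brightest probe read 0.05, -0.12 and -0.54 at day 3 and -0.12, -0.03 and -0.60 at day 4, and passed at neither. Its other 3 probes, which carry neighbouring clone numbers, had means of -0.60, -0.64 and -0.67 at day 3 and -0.63, -0.66 and -0.62 at day 4, and all 3 passed on both days. The 3 arrays differed in size: the probe with the lowest day 3 mean read -0.21, -0.75 and -1.04 at day 3 and 0.01, -0.68 and -1.18 at day 4, largest on array 3 each time. Whether the 3 clones hold the same cDNA was not tested. For the brightest of the 3, both calls were lost without array 2 or array 3, under loess within each print block, under plain background subtraction and under the scaling of the value table. For 1 of the others, the day 3 call held without array 3 and under loess within each print block.

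Other members with several probes also gave calls that differed by probe. Eif1a had 1 dim probe of 5 that passed at day 2, with values of -0.56, -0.31 and -0.44 (mean -0.43, adjusted p = 0.02052, limma), while its brightest probe was at 0.00; the call was lost whichever array was left out. Eif3a had 1 of 3 probes pass at day 4 (mean -0.39, adjusted p = 0.03172). Eif4enif1 had 1 of 3 probes pass at day 4, lower in red (mean -0.29, adjusted p = 0.02252), while the brightest was at 0.19. Both of these probes were dimmer than the brightest probe of their gene, and the Eif4enif1 one reached the signal-to-noise limit in red on 1 of 3 arrays. The Eif3a call was lost without array 2 or array 3, and the Eif4enif1 call whichever array was left out. A clone described as glutamyl-tRNA synthetase also had a dimmer probe that passed at day 3, lower in red, a call lost whichever array was left out.

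**Figure D2:**
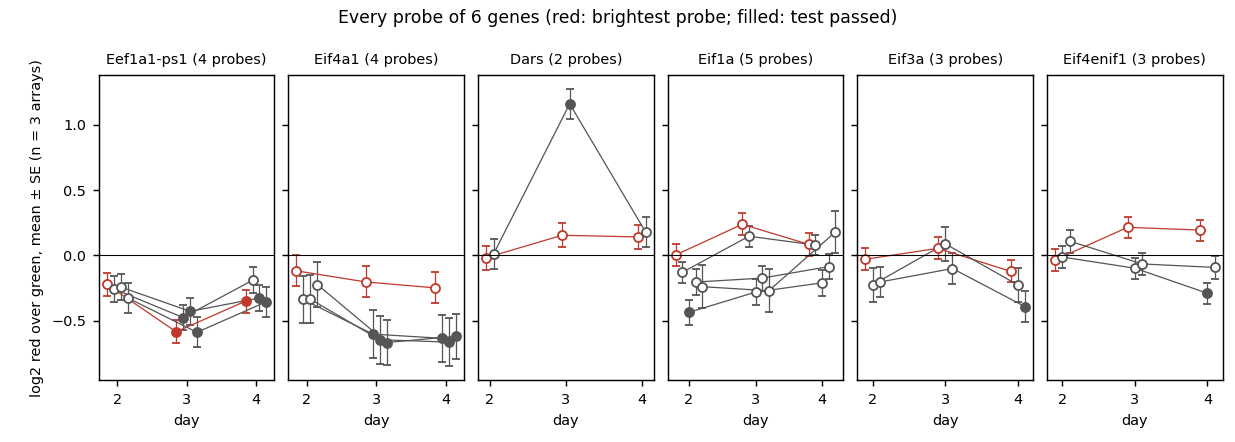
The plot of every probe of 6 genes gives mean log2 red over green with SE (3 arrays) by day, with brightest probes in red and filled points for means that passed the test. The 4 Eef1a1-ps1 probes lie together below 0, 3 Eif4a1 probes lie near -0.6 at days 3 and 4 while the brightest lies at -0.20 and -0.25, and 1 Dars probe stands at 1.16 at day 3.

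Of the 12 synthetases, 0 passed at days 2 and 3 and 1 passed at day 4. limma's unadjusted p was under 0.05 for 1 gene at day 2, 0 at day 3 and 5 at day 4. Of all gene probes, it was under 0.05 for 2656 of 15246 at day 2, 5286 of 15247 at day 3 and 4684 of 15243 at day 4. Their median ratios were -0.03, -0.07 and -0.02 at days 2, 3 and 4. Eprs, which charges glutamate and proline, read -0.25, -0.42 and -0.76 at day 4, with a fitted mean of -0.48 (SE 0.12, adjusted p = 0.01423, limma). Red was not well above background on any of the 3 arrays of day 4 and green was on 2. Green is given as 1.39-fold higher, which is the fitted ratio and not a lower bound. The spot's own red signal lay above the lowest signal called above background, so that limit did not change the value. The measured log2 levels were 7.01 in red and 7.48 in green. Background-subtracted intensities of this spot were 14 to 32 in red and 56 to 134 in green. The call was lost without array 2 or array 3, and the ratio was -1.48 under plain background subtraction and -1.99 under the scaling of the value table. Over all alternatives the ratio lay between -1.99 and -0.33.

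Farsb, the beta chain for phenylalanine, read 0.30, 0.27 and 0.22 at day 4 and -0.25, -0.25 and 0.01 at day 3. Its difference between days 4 and 3 was 0.42 (SE 0.12, adjusted p = 0.05632, limma), the smallest adjusted p of any member there, and it did not pass. Hars, for histidine, had a day 4 mean of 0.21 (adjusted p = 0.09822), and Sars2, the mitochondrial serine enzyme, read -0.29, -0.17 and -0.17 at day 4 (adjusted p = 0.06984). Aars (alanine), Kars (lysine), Nars (asparagine) and Yars (tyrosine) had day 4 means from -0.12 to 0.01. On every array and in both channels, Cars (cysteine) was not well above background, so it has no fold. The 2 clones named only by their description did not pass in their brightest probes.

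Dars, for aspartate, also gave different answers by probe. Its brightest probe, whose PCR check showed multiple bands, read 0.08, 0.27 and 0.12 at day 3 (mean 0.15, SE 0.09). A dimmer probe read 1.05, 1.20 and 1.23 at day 3 (mean 1.16, SE 0.11, 2.24-fold higher in red, adjusted p = 3.289e-06, limma), against 0.01 at day 2 and 0.18 at day 4. All 3 arrays of day 3 stood apart from the others. The intensities of that spot were 289, 202 and 448 in red and 116, 40 and 122 in green at day 3, and in red 885, 120 and 18076 at day 4, a spread far above that of its brightest probe (8389, 4466 and 2987). The authors' deposited table called this probe up at day 3, with a fold of 3.68 and a p of 0.0779.

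In the authors' deposited table, 0 of 65 member probes with a value were called at day 2, 1 up and 4 down of 63 at day 3, and 0 up and 5 down of 67 at day 4. The probes called down were of Eif4a1 and Eef1a1-ps1 at day 3, and of Eif4a1, Eif3a, Eif4enif1 and Eprs at day 4. Up and down follow the deposited fold of red over green. Among the called probes, only Eprs had an authors' ANOVA p under 0.05 (0.0462). The share of all gene probes called by the authors' rule was not counted, so these calls have no background beside them.

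Between the days no brightest probe changed its ratio past the test. From day 2 to day 3, 0 of 38 passed where 3.21% of gene probes did, and from day 3 to day 4, 0 passed where 6.58% did. limma's unadjusted p was under 0.05 for 5 and 1 of the 38 genes. Of all gene probes, it was under 0.05 for 2533 of 15246 and 2652 of 15243. The difference from day 2 to day 3 was -0.36 for Eef1a1-ps1 (SE 0.13, adjusted p = 0.142, limma) and -0.31 for Eef1a2 (SE 0.12, adjusted p = 0.1945, limma). The dimmer Dars probe passed both tests, with 1.15 from day 2 to day 3 and -0.98 from day 3 to day 4.

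Within 1 channel, the level of 1 member differed between days 2 and 4. In red 1 of 38 genes passed where 6.8% of gene probes did, and in green 1 where 6.19% did. In both channels the gene was Eif2b4, the delta subunit of eIF2B, the factor that recharges eIF2 with GTP. Its intensities were -202, -34 and 46 in red and 10, 12 and 137 in green at day 2, not well above background on any array, and 1929, 3017 and 3300 in red and 1469, 2159 and 3184 in green at day 4. The groups did not overlap. The level at day 4 was at least 26.0-fold higher in red (adjusted p = 0.00141, limma). In green it was 18.3-fold higher (adjusted p = 0.003224, limma), which is the fitted difference and not a lower bound. Over the alternatives the green log2 difference lay between 3.95 and 4.36. Mean log2 levels were 6.32 in red and 7.10 in green at day 2, against 11.36 and 11.29 at day 4. The spot was flagged bad on 2 arrays of day 3 and 1 of day 4, which the fit left out, so the day 4 level rests on 2 arrays. The call in green was lost without replicate 1 (adjusted p = 0.05105, limma). Array and day cannot be told apart in levels, since each day has its own arrays. The day 2 ratio of Eif2b4 (-0.77, adjusted p = 0.0004435) is the only call of that day among the brightest probes, and with both channels near background it has no fold.

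**Figure D3:**
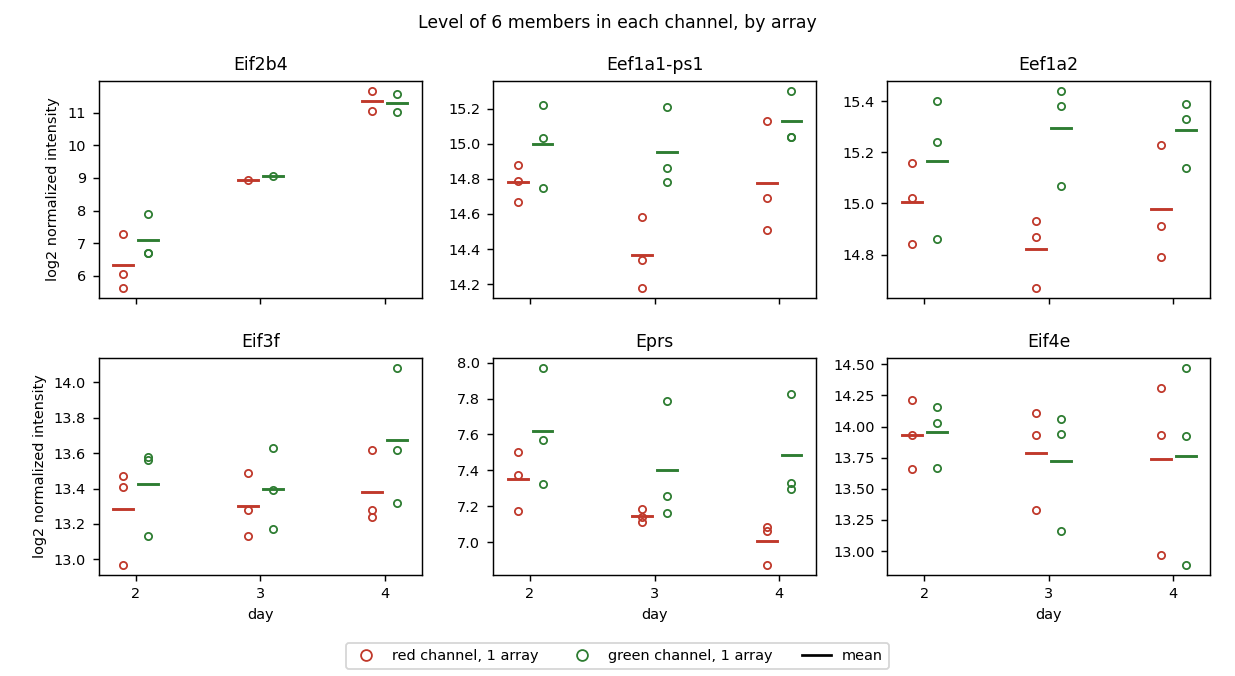
The plot of levels gives log2 normalized intensity (vertical axis, a separate scale in each panel) by day for 6 members, with 1 open circle per array and channel and bars for means. Eif2b4 rises from below 8 at day 2 to above 11 at day 4 in both channels, while in the other 5 panels the daily means of a channel differ by less than 1 log2 unit.

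None of the other members passed. Sars2 was at -0.59 in red (SE 0.21, adjusted p = 0.151, limma) and -0.41 in green. Eif2ak1 was at -0.57 in red and -0.67 in green (SE 0.21, adjusted p = 0.1177). Dars was at 0.69 in red and 0.53 in green, and Eif2ak4 was at 0.61 in green (SE 0.20, adjusted p = 0.1196). The elongation factors had medians of 0.00 in red and 0.13 in green.

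A further 53 gene probes for 29 genes are described as translation factors or synthetases without a symbol of the rule, and they were read the same way. Of the 53, 15 passed at day 3 (4 higher and 11 lower, 28.3%) and 16 at day 4 (3 higher and 13 lower, 30.2%). Of all gene probes, 20.1% and 17.4% passed. Several clones share a gene, so these are not counts of genes. By the brightest clone of each of the 29 genes, 3 were higher and 4 lower at day 3. At day 4, 2 of the 29 were higher and 3 lower. All 4 clones of Eef2, which encodes elongation factor 2, were lower in red at day 4, from -0.57 to -0.40 with adjusted p from 0.003138 to 0.02622 (limma), and 2 of 4 passed at day 3. All 5 clones of Eef1g, a subunit of EF1B, passed at day 4, from -0.37 to -0.31, and none at day 3; each of these 5 calls was lost without array 1 or array 3. Of the 4 clones of Eif4b, a helper of the eIF4A helicase, 3 passed at day 4, with the lowest at -0.49. Of 6 Eef1a1 clones, 4 passed at day 3 and 1 at day 4, all lower. Eif1 clones went the other way, with 2 of 4 higher at day 3 and 1 at day 4 (0.42, adjusted p = 0.001888). Eef2k, the kinase that inhibits elongation factor 2, was higher at day 4 (0.32, adjusted p = 0.02242), a call lost without array 2 or array 3. Of the 4 Eef2 calls at day 4, 3 were lost without at least 1 array, while the 3 Eif4b calls at day 4 held without each array in turn. Single clones of Eif2b2 (-0.49), Eif5 (-0.37) and Tars2 (-0.30) were lower at day 3, those of Eif2b3 (0.30) and Eif3j1 (0.30) were higher at day 3, Eif3j1 also at day 4 (0.32), and one of Eif2a was lower at day 2 (-0.36). Of these, the Eif2b2 call alone held without each array in turn. Among 203 gene probes of any kind with a mean log2 intensity of 14 or more, a limit chosen after seeing the values, 27 were lower and 5 higher at day 3, and 18 lower and 9 higher at day 4, so that 13.3% and 8.87% were lower beside 11% and 9.45% of all gene probes. The Eef1a1-ps1 and Eef1a2 probes are among them, and the part of spot brightness in their ratios was not tested.

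**Figure D4:**
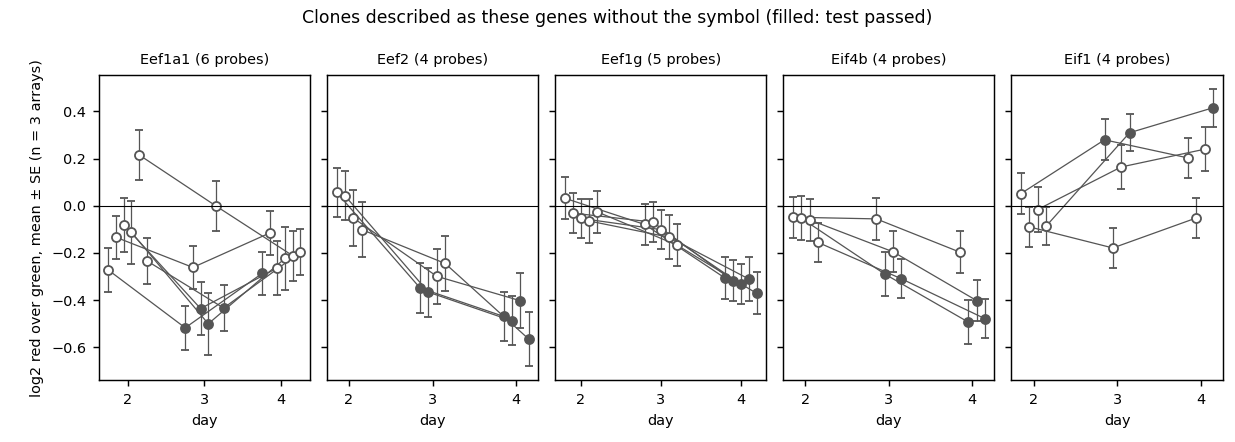
The plot of clones named by description gives mean log2 red over green with SE (3 arrays) by day for the clones of 5 genes, filled where the test was passed. All Eef2 and Eef1g clones lie below -0.3 at day 4, and most Eef1a1 clones lie below -0.4 at day 3.

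The genes of the pathways around translation are given by their counts, beside the 20.1% and 17.4% of all gene probes that passed at days 3 and 4. Of 4 measured poly(A)-binding genes, Paip2, an inhibitor of the poly(A)-binding protein, was lower at day 4 (-0.42, adjusted p = 0.001622, limma). Of 4 measured mitochondrial translation factors, Mtif3 was lower at day 4 (-0.29, adjusted p = 0.03274). Of 7 measured genes of the integrated stress response, which lowers eIF2 activity and raises ATF4, 3 passed at day 3 and 2 at day 4. Vldlr was higher at day 3 (0.44) and lower at day 4 (-0.36), Mthfd2 was lower at day 3 (-0.44) and Trib3 was higher at day 4 (0.52). Of these, only the Trib3 call held without each array in turn. Slc3a2 passed at day 3 with both channels not well above background, so it has no fold. None of 5 measured genes of mTORC1 and translation control passed on any day. Of 9 nucleolar and assembly genes, Myc was higher at day 3 (0.61, adjusted p = 0.0003005) and Nolc1 lower at day 4 (-0.48, adjusted p = 0.03869). The Myc and Paip2 calls held without each array in turn, and those of Nolc1 and Mtif3 did not. Of 2 termination genes and 1 scaffold gene of the synthetase complex, none passed.

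The 6 member genes whose brightest probe lies in print blocks 21 to 25 include 4 of the 12 synthetases. In those blocks 20.5% of probes were lower in red at day 3 and 7.0% higher, against 9.88% and 9.39% in the other blocks. At day 4, 17.7% were lower and 6.67% higher, against 8.49% and 8.12%, and the medians were -0.06 and 0.01. At day 2, 8.81% were lower and 1.20% higher, against 1.11% and 1.41%. Eprs lies in these blocks, and the part of the block in its ratio was not tested.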

How the data were processed

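The members and lists were chosen with earlier results of these data known. The authors deposited, per the file headers, a GenePix intensity per spot and channel (median foreground minus background, linear scale, not normalized), a signal-to-noise score and a flag score. They also deposited a fold ratio and an ANOVA p-value per day, from channels scaled to a common mean. A further 36 columns of scaled copies of these channels were not used. RNA was amplified in 1 round, per the labels' protocols. Here limma 3.58.1 (R 4.3.3) applied normexp (offset 50) and loess. Spots flagged at -75 or below were left out. A term per day was fitted to 9 log2 ratios. Benjamini-Hochberg adjustment ran over all gene probes, with a threshold of 0.05. Levels came from single channels after Aquantile. The brightest probe is that of highest mean intensity. Alternatives were background subtraction, scaling, print-block loess, median centring, a filter on dim probes, probe averaging, leaving out replicates and the array as a pair. On simulated data, 85.1% of 1.5-fold and 98.5% of 2-fold changes were recovered for the day 3 ratio, over 15247 gene probes. Far fewer probes were changed there than passed at day 3, and background noise was set below the fitted one. Changes under 1.5-fold and dye effects of single probes were not simulated. The recovered shares therefore do not give the power for the members. The number of arrays limits precision. The labels call the replicates biological.

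Genes were named by role: those past the test with 1 sign on all arrays, a fixed panel, every synthetase with a symbol, probes that disagreed, and pathway genes past the test. Panel genes with no member probe were not analysed as members. Symbols came from the probe descriptions, updated through RefSeq. The red and green channels of an array deviated together (r from 0.80 to 0.91), and the array was taken as the pair. Both channels are read from the same spots, so this correlation does not show that the samples themselves are paired. Ratios of the same replicate number on different days did not deviate together (r from -0.15 to 0.20). A search of promoter windows for a short motif is not reported here.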

Additional observations from a re-analysis of the deposited data

Results flagged for a closer look

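The dimmer Dars probe was picked out because its channel ratio differed between days by the test of the difference itself. The difference was 1.15 from day 2 to day 3 (adjusted p = 0.000735, limma) and -0.98 from day 3 to day 4 (adjusted p = 0.000873), while the brightest Dars probe gave 0.17 and -0.01 and did not pass. The ratio was higher in red on 3 of 3 arrays of day 3.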

How the results depend on the processing

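With 38 members, few changes of call were possible, and precision was set by 3 arrays a day. At day 2, 1 member passed (Eif2b4), and 0 passed under plain background subtraction, the scaling of the value table, the filter on dim probes and no replicate block. At day 3, 2 members passed, 5 under print-block loess (Eif1a and Eif2a higher, Eif4a2 lower), 5 with the filter on dim probes (Eif1a, Eif3l and Eif4enif1 higher), 4 with the mean over the probes of a gene (Dars higher) and 0 with no replicate block. At day 4, 4 passed, 8 under print-block loess (Eif2a, Farsb and Hars higher), 7 with the mean over probes and 0 with no replicate block. The fit with no replicate block sets the channels of an array against each other unpaired; over all gene probes its calls were 81, 150 and 162 at days 2, 3 and 4, against 503, 3070 and 2656. Between days, the mean over probes called 1 member (Dars) from day 2 to day 3 and 2 (Dars, Farsb) from day 3 to day 4, and the filter on dim probes called 1 (Farsb) there, against 0 each; the replicate number as a block called 0 of both. For levels, 0 passed in either channel with the filter on dim probes, which removes Eif2b4, against 1, and the replicate block left 1. Leaving out each replicate gave 1 at day 2, 2 to 3 at day 3, 0 to 4 at day 4, 0 for both differences between days, 1 for red levels and 0 to 1 for green levels. Without print blocks 21 to 25, an alternative chosen after seeing the data, 1, 2 and 3 passed at days 2, 3 and 4. Of 70 named calls of single probes, none reversed its direction under the alternatives run; 49 were lost without at least 1 replicate, 35 under at least 1 other background correction, normalization or probe choice, and 65 of the 66 with such a fit under no replicate block. Over all gene probes, the scaling of the value table moved the share of calls higher in red from 42.0% to 74.6% at day 2. The cause of these changes was not tested.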
